A study of Homo sapiens with 12 samples.

Results

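The integrin subunits described here are 10 genes chosen by name, the alpha chains ITGA2, ITGA3, ITGA5, ITGA6 and ITGAV and the beta chains ITGB1, ITGB4, ITGB5, ITGB6 and ITGB8. They are 10 of the 26 human integrin subunits and 10 of the 32077 genes in the count table. The samples were wild type cultures labelled as PC3 and DU145, androgen-independent lines from human prostate cancer metastases. They were kept for 48 hours in 2.5 μmol/L pentamidine, an aromatic diamidine used against protozoan and fungal infections, or in vehicle, which was sterile distilled water. Each of the 4 groups held 3 samples, 12 in all, and each label stands for 1 established line, so a difference between the lines is a difference between these cultures. RNA-seq of Oligo(dT)-enriched RNA gave between 13514195 and 15131436 reads counted on genes per sample. The labels do not say whether the 3 samples of a group came from separate cultures, so the p-values measure the spread between these samples, which may be technical.

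Integrins are cell surface receptors built from an alpha and a beta chain, which join a ligand outside the cell to the actin or keratin cytoskeleton inside it. The alpha chain sets most of the choice of ligand. ITGA3 and ITGA6 proteins bind laminins of the basement membrane, ITGA2 protein binds collagens, and ITGA5 and ITGAV proteins bind the arginine-glycine-aspartate (RGD) motif of fibronectin, vitronectin and latent TGF-beta. ITGB1 protein pairs with each of the 5 alpha chains, ITGB4 protein pairs with ITGA6 protein in hemidesmosomes, the anchors of epithelial cells to the basement membrane, and ITGB5, ITGB6 and ITGB8 proteins pair with ITGAV protein. In normal prostate epithelium the ITGA6 and ITGB4 chains mark the basal surface, and loss of ITGB4 with retention of ITGA6 is a known feature of prostate carcinoma.

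The labelled lines were set against their defining markers before any result. Of 5 epithelial markers, KRT8 and KRT18 were present in every sample, at different levels in the lines. KRT8 had 238 to 307 counts in PC3-labelled and 25835 to 38812 counts in DU145-labelled samples. KRT18 had 2125 to 3085 and 9962 to 13423 counts in the same order. EPCAM had at most 2 counts, CDH1 at most 10 and KRT19 at most 3 in any sample, so these 3 defining epithelial genes were at or near 0 in cells that carry an epithelial label. Among prostate markers, KLK3, KLK2 and FOLH1 had at most 3 counts. CTNNA1, the alpha-catenin gene, is known to be deleted in PC3 cells, but the libraries labelled PC3 held 6003 to 8545 counts of it. The data therefore go against the PC3 label, and absent EPCAM and CDH1 go against both labels. The study's methods state that the lines were authenticated by short tandem repeat profiling, and the identity of the cells cannot be settled from these counts. The groups are called PC3-labelled and DU145-labelled below. Markers of other cell types were low: the 4 leukocyte markers with a value summed to at most 0.647 CPM (read count scaled to the library total by TMM) and the 5 fibroblast markers to at most 0.417 CPM in any sample, and of the 5 endothelial and platelet markers GP1BA alone exceeded 10 counts, with 11 to 60. TMPRSS2 and CD3E were not analysed here.

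The stretch before the start site is shown for ITGAV, ITGA6, ITGB1 and ITGA5, because these are the members whose mRNA fell together in the DU145-labelled cells. RefSeq (GRCh38.p14) listed promoters for 8 of the 10 members, and ITGA3 and ITGB4 had no entry. Each line runs 5′ to 3′ on the strand of the gene and stops at the first annotated exon, so that lengths differ. ITGAV lies at chr2:186589806-186590055 on the plus strand, ITGA6 at chr2:172427086-172427335 on the plus strand, ITGB1 at chr10:32958233-32958480 on the minus strand and ITGA5 at chr12:54419461-54419516 on the minus strand. Capitals mark the GC box GGGCGG on either strand.
ITGAV: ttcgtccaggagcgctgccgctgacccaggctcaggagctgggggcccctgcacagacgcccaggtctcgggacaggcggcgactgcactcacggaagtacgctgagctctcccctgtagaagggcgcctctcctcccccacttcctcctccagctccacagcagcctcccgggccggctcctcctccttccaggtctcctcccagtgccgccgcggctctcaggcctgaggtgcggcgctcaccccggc
ITGA6: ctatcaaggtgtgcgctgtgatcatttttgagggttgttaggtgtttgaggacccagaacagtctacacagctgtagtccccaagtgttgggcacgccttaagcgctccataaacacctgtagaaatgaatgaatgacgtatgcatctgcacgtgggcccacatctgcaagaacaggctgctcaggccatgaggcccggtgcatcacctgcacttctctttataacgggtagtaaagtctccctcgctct
ITGB1: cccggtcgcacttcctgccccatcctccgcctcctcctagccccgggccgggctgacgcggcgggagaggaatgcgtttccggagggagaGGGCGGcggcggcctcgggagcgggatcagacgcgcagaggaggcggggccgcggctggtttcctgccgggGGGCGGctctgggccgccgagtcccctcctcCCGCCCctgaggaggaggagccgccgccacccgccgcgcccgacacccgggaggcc
ITGA5: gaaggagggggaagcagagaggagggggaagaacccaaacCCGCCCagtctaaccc
In the whole RefSeq window, 250 bases before to 50 after the start, a GC box was found in 6 of the 8 members with an entry, against 44.6% of 27305 promoters. The ITGB1 window held 3, those of ITGA5 and ITGA6 held 1 each (for ITGA6 in the bases not printed), and that of ITGAV held 0. The TATA box TATAAA, which shares no base with a GC box, was also sought on either strand. It was found in the ITGA6 window alone, against 12% of all promoters, and reads TTTATA on the strand of the gene. The 4 stretches thus share neither motif, and a match is a description of letters, not of a site in use.

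The first comparison set the vehicle-treated lines against each other. A gene was called changed where the adjusted p of edgeR's quasi-likelihood test was below 0.05 (Benjamini-Hochberg over all genes tested). ITGB6 was removed by the filter on low counts, with 1 to 14 counts in any sample, and is described by its counts alone. Of the 9 members tested, 8 differed between the lines, 1 higher and 7 lower in PC3-labelled cells, beside 65.3% of all genes called, 31.5% higher and 33.8% lower. The groups of 3 samples did not overlap for the same number, 8 members, beside 69.1% of all genes. The median log2 difference of the 9 members, PC3-labelled minus DU145-labelled, was -0.69, and that of all genes tested was -0.01.

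ITGA3 was the member that was higher in PC3-labelled cells. Its level in vehicle was 579, 513 and 547 CPM in PC3-labelled and 213, 207 and 199 CPM in DU145-labelled cells, a log2 difference of 1.38 (SE 0.05, edgeR adjusted p = 6.6e-13). The reverse held for ITGA6, the other laminin-binding alpha chain, at 153.5, 156 and 155 CPM against 394.5, 396 and 403 CPM, with a log2 difference of -1.39 (SE 0.04, edgeR adjusted p = 1.2e-13). ITGB4, the hemidesmosomal beta chain, was barely detected in PC3-labelled cells, with 6, 8 and 8 counts against 71, 62 and 42 counts, and its log2 difference of -3.05 (SE 0.32, edgeR adjusted p = 4.1e-07) was the largest among the members. PC3-labelled cells thus carried more mRNA of the ITGA3 chain and less of the ITGA6 chain and of its hemidesmosomal partner. ITGA5, the fibronectin receptor chain, was also past the fold limit of the study (an absolute log2 difference above 1), at -1.23 (SE 0.06, edgeR adjusted p = 1.5e-11). The 4 members past that limit were ITGA3, ITGA5, ITGA6 and ITGB4, beside 19.2% of all genes. The others that were lower in PC3-labelled cells had log2 differences of -0.74 for ITGB1, -0.69 for ITGA2, -0.43 for ITGB5 and -0.41 for ITGAV. ITGB8, the chain of the receptor for latent TGF-beta, was at 17.5 ± 2.5 CPM in PC3-labelled and 17.1 ± 2.4 CPM in DU145-labelled cells (SD, n = 3), a log2 difference of 0.01 with a 95% interval of -0.23 to 0.25.

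**Figure D1:**
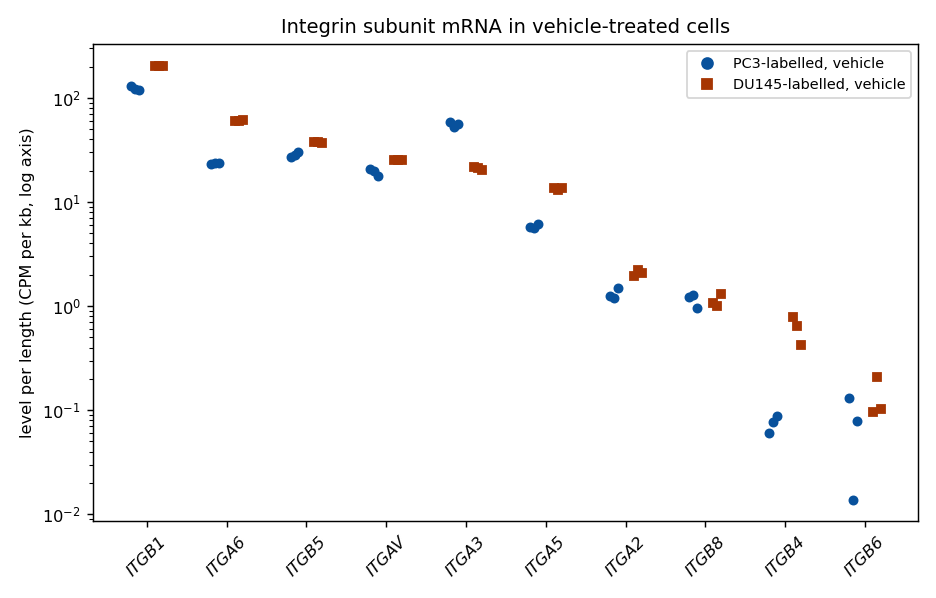
Level of each of the 10 subunits in the vehicle samples, as CPM per kb of exon on a log axis, with 1 point per sample and subunits ordered by their level in DU145-labelled cells. ITGB1 is highest in both lines, ITGA3 stands above and ITGA6 below in PC3-labelled cells, and ITGB4 is near 0.0746 CPM per kb in PC3-labelled against 0.617 in DU145-labelled cells.

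Levels of different subunits were compared per exon length, the merged length of all annotated exons of a gene. The transcripts in use were not determined and can be shorter, so orders and shares of subunits depend on this length. ITGB1 had the highest level of the 10 in all 4 groups, at 124 ± 5.3 CPM per kb in vehicle-treated PC3-labelled and 204 ± 1.2 CPM per kb in vehicle-treated DU145-labelled cells (SD, n = 3). Among 12457 protein-coding genes ranked by level per length, ITGB1 stood at the 98.2 and 99.0 percentile. In PC3-labelled cells in vehicle the order after ITGB1 was ITGA3, ITGB5, ITGA6, ITGAV, ITGA5, ITGA2, ITGB8, ITGB4 and ITGB6. The sample ranges of neighbours in that order overlapped for ITGA2 and ITGB8, at 1.31 and 1.15 CPM per kb, and for ITGB4 and ITGB6, at 0.0746 and 0.0741 CPM per kb. DU145-labelled cells in vehicle had ITGA6 second at 60.9 CPM per kb, then ITGB5, ITGAV, ITGA3, ITGA5, ITGA2, ITGB8, ITGB4 and ITGB6, with no overlap between neighbours. The 5 lead subunits per length were therefore the same genes in both lines in a different order.

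**Figure D2:**
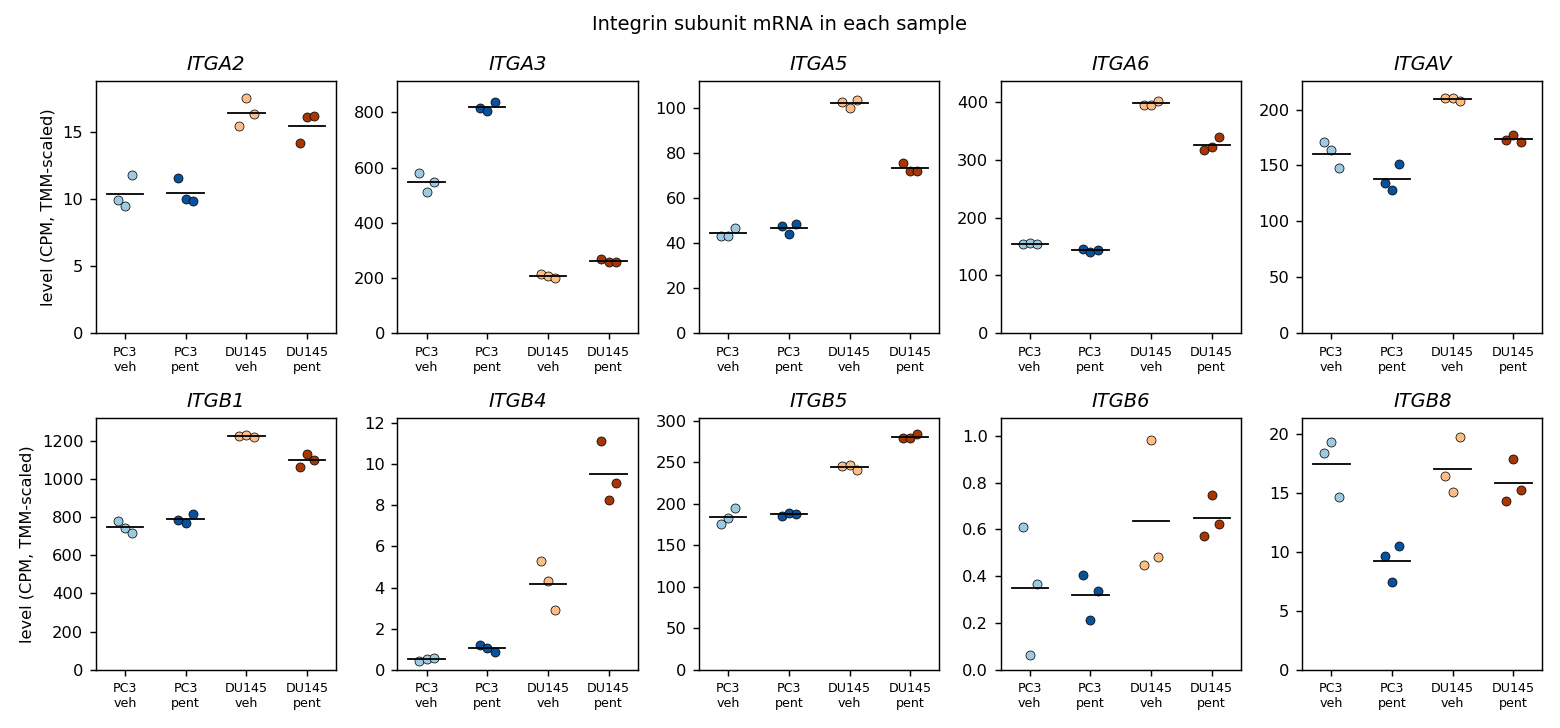
Level of each subunit in each of the 12 samples, as TMM-scaled CPM on a linear axis that starts at 0, with the group mean as a line. With pentamidine, ITGA3 and ITGB4 stand above vehicle in both lines, ITGB8 stands below vehicle in PC3-labelled cells, and ITGA5, ITGA6, ITGAV and ITGB1 stand below vehicle in DU145-labelled cells.

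The next comparisons asked how each line responded to pentamidine. In PC3-labelled cells 4 of the 9 members tested changed, 2 up and 2 down, which is 44.4% beside 43.4% of all genes (21.7% in each direction), a share near the background. In DU145-labelled cells 7 of 9 changed, 3 up and 4 down, which is 77.8% beside 34% of all genes (17.2% up and 16.8% down). The even split of all genes depends on the scaling, since 2459 rose and 2401 fell with TMM but 3278 rose and 1646 fell with library size alone, where 3 members rose and 4 fell as before. The groups did not overlap for 4 members in PC3-labelled cells, beside 52.1% of all genes, and for 7 members in DU145-labelled cells, beside 44%. The median log2 fold change of the members was 0.03 in PC3-labelled and -0.11 in DU145-labelled cells, and that of all genes was 0.0046 and 0.0085. Only 1 member in each line, ITGB4 in both, also passed the fold limit of the study, beside 4.75% and 2.03% of all genes. In bulk RNA, fewer cells with a transcript and less RNA per cell cannot be told apart. Pentamidine samples also held a lower share of mitochondria-encoded reads, 2.66 to 2.76% against 3.79 to 3.91% in PC3-labelled and 1.97 to 2.07% against 4.41 to 4.66% in DU145-labelled cells, and with those 28 genes left out the same number of members, 4 and 7, changed.

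**Figure D3:**
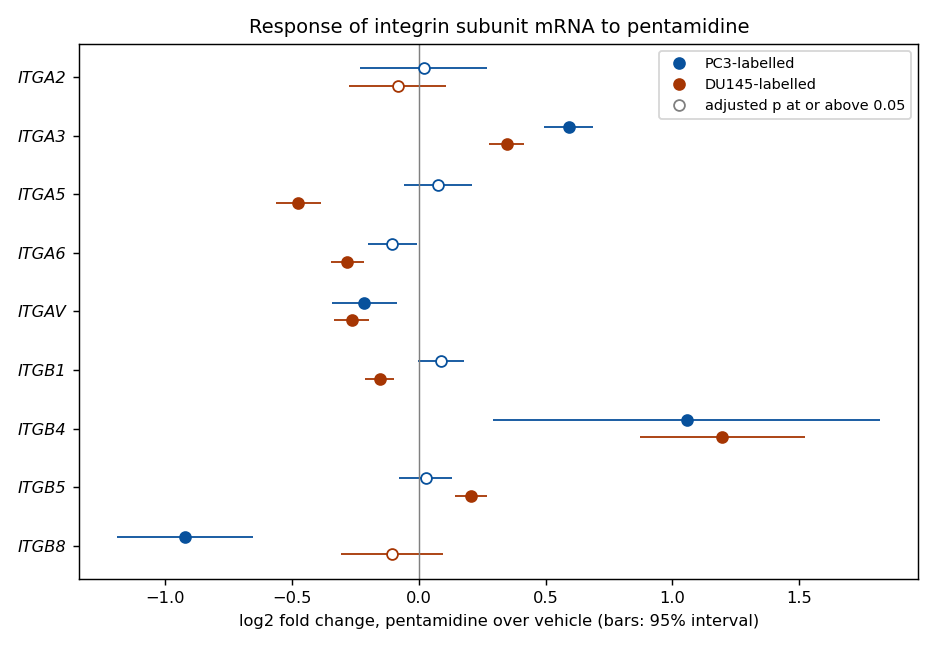
Log2 fold change of the 9 tested subunits, pentamidine over vehicle, in PC3-labelled and DU145-labelled cells, with bars for the 95% interval and open points where the adjusted p was 0.05 or more. ITGA3 and ITGB4 lie right of 0 in both lines, ITGB8 lies at -0.92 in PC3-labelled cells, and ITGA5 lies at -0.48 in DU145-labelled cells.

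Of the laminin-binding chains, ITGA3 rose in both lines. ITGA3 (ENSG00000005884, chromosome 17, 50055968 to 50090481, plus strand) went from 579, 513 and 547 CPM to 815.5, 806 and 838 CPM in PC3-labelled cells. The log2 fold change was 0.59 (SE 0.05, edgeR adjusted p = 4.3e-08), or 1.51-fold. In DU145-labelled cells it went from 213, 207 and 199 CPM to 267, 258 and 259 CPM, a log2 fold change of 0.35 (SE 0.03, edgeR adjusted p = 8.7e-12). Every pentamidine sample lay above every vehicle sample of its line. The rise was larger in PC3-labelled cells by 0.24 on the log2 scale (SE 0.06, edgeR adjusted p = 0.00439 for the interaction of line and treatment).

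ITGA6 (ENSG00000091409, chromosome 2, 172427354 to 172506282, plus strand), the chain shared by the laminin receptor and the hemidesmosome, moved the other way. In DU145-labelled cells its level was 394.5, 396 and 403 CPM in vehicle and 316.5, 323 and 339 CPM in pentamidine, and it fell by 0.28 on the log2 scale (SE 0.03, edgeR adjusted p = 5.5e-10). In PC3-labelled cells its level was 153.5, 156 and 155 CPM in vehicle and 145, 141 and 144.5 CPM in pentamidine. These PC3-labelled groups did not overlap, but the log2 fold change of -0.10 (95% interval -0.20 to -0.01) did not pass the test (edgeR adjusted p = 0.0949), whereas it passed when all 12 samples were fitted together (edgeR adjusted p = 0.0331). The interaction was 0.18 (SE 0.06, edgeR adjusted p = 0.0248), and it was lost with scaling by library size alone (edgeR adjusted p = 0.182) and when any 1 of 5 samples was left out (edgeR adjusted p 0.0525 to 0.0791). These 5 were replicates 1 and 3 of pentamidine-treated PC3-labelled cells, replicate 3 of vehicle-treated DU145-labelled cells and replicates 1 and 2 of pentamidine-treated DU145-labelled cells. Antisense genes overlap 2.7% or less of the ITGA6 exon length and had at most 29 counts.

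ITGB4 (ENSG00000132470, chromosome 17, 75721328 to 75757818, plus strand), the partner of the ITGA6 chain in hemidesmosomes, had the largest fold change of the members in both lines. In DU145-labelled cells it went from 71, 62 and 42 counts (5.29, 4.34 and 2.89 CPM) to 156, 122 and 131 counts (11.1, 8.28 and 9.10 CPM), with no overlap. The log2 fold change was 1.20 (SE 0.17, edgeR adjusted p = 6e-08), or 2.29-fold. In PC3-labelled cells it went from 6, 8 and 8 counts to 18, 15 and 13 counts, a log2 fold change of 1.06 (SE 0.39, edgeR adjusted p = 0.0366). That call rests on few reads. It was lost with DESeq2 (adjusted p = 0.178), with no filter on low counts (edgeR adjusted p = 0.0813) and in 5 of the 6 fits that left out 1 sample, all except that without pentamidine replicate 3, with edgeR adjusted p from 0.0571 to 0.131. The interaction was -0.14 (95% interval -1.10 to 0.83, edgeR adjusted p = 0.896), so that the few counts bound a difference between the lines only loosely. GALK1 lies over the 3′ end of ITGB4 on the opposite strand but shares 0 exon bases with it.

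The collagen receptor chain ITGA2 (ENSG00000164171, chromosome 5, 52989326 to 53094779, plus strand) did not pass the test in either line. Its level was 9.96, 9.45 and 11.8 CPM in vehicle and 11.5, 10.02 and 9.85 CPM in pentamidine in PC3-labelled cells, and the ranges overlapped. In DU145-labelled cells it was 15.4, 17.5 and 16.4 CPM against 14.1, 16.1 and 16.2 CPM. The log2 fold changes were 0.02 (95% interval -0.23 to 0.27) and -0.08 (95% interval -0.28 to 0.11).

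ITGA5 (ENSG00000161638, chromosome 12, 54395261 to 54419460, minus strand), the alpha chain of the main fibronectin receptor, had the smallest adjusted p of the members for a difference in response between the lines. In DU145-labelled cells its level was 103, 100.1 and 104 CPM in vehicle and 75.5, 72.0 and 72.1 CPM in pentamidine, with no overlap. It fell by 0.48 on the log2 scale (SE 0.05, edgeR adjusted p = 1.2e-12), the largest decrease of a member in that line. In PC3-labelled cells its level was 43.4, 43.1 and 46.5 CPM in vehicle and 47.5, 43.9 and 48.3 CPM in pentamidine, a log2 fold change of 0.08 (95% interval -0.06 to 0.21) that did not pass the test. The interaction was 0.55 (SE 0.08, edgeR adjusted p = 5.3e-06).

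ITGAV (ENSG00000138448, chromosome 2, 186590065 to 186680901, plus strand), which pairs with several beta chains to bind vitronectin and latent TGF-beta, fell in both lines. In DU145-labelled cells its level was 211, 210.4 and 208 CPM in vehicle and 173, 177.5 and 171 CPM in pentamidine, and it fell by 0.26 on the log2 scale (SE 0.04, edgeR adjusted p = 2.5e-08). In PC3-labelled cells it was 171, 163.5 and 147 CPM in vehicle and 134, 128 and 151 CPM in pentamidine. These ranges overlapped, since the third pentamidine sample stood above the third vehicle sample, and the fall of 0.21 (SE 0.07, edgeR adjusted p = 0.0134) was lost without pentamidine replicate 1 (edgeR adjusted p = 0.0691) or pentamidine replicate 2 (edgeR adjusted p = 0.0902). The interaction was 0.05 (95% interval -0.10 to 0.20).

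ITGB1 (ENSG00000150093, chromosome 10, 32900319 to 33005792, minus strand), the common beta chain, fell slightly in DU145-labelled cells. Its level there was 1227, 1232 and 1218 CPM in vehicle and 1063, 1128 and 1101 CPM in pentamidine, with no overlap, and it fell by 0.15 on the log2 scale (SE 0.03, edgeR adjusted p = 2.3e-05). In PC3-labelled cells it was 779.8, 741 and 717 CPM against 782, 771.5 and 814 CPM, a log2 fold change of 0.09 (95% interval -0.005 to 0.18) that did not pass the test. The interaction was 0.24 (SE 0.05, edgeR adjusted p = 0.00162). A processed copy of the gene, ITGB1P1, took counts equal to 3.38 to 4.35% of those of ITGB1, and reads of the 2 copies can be split by the counting. With its counts added to ITGB1 the log2 fold changes were 0.09 in PC3-labelled and -0.16 in DU145-labelled cells, and the interaction was 0.25.

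ITGB5 (ENSG00000082781, chromosome 3, 124761948 to 124901418, minus strand), the beta chain of a vitronectin receptor with ITGAV, rose slightly in DU145-labelled cells. Its level was 245, 246 and 240.1 CPM in vehicle and 279, 278 and 283.5 CPM in pentamidine, with no overlap and a log2 fold change of 0.21 (SE 0.03, edgeR adjusted p = 1.6e-06). In PC3-labelled cells it was 176, 182 and 195 CPM against 185, 189 and 188 CPM, a log2 fold change of 0.03 (95% interval -0.08 to 0.13). The interaction of -0.18 (SE 0.06, edgeR adjusted p = 0.0309) was lost with RLE normalization (edgeR adjusted p = 0.053), with no filter on low counts (edgeR adjusted p = 0.101) and in 9 of the 12 fits that left out 1 sample. In those 9 fits the edgeR adjusted p ran from 0.052 to 0.104, and the 3 exceptions were those without PC3 vehicle replicate 1, PC3 vehicle replicate 2 and PC3 pentamidine replicate 2.

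ITGB8 (ENSG00000105855, chromosome 7, 20330702 to 20415754, plus strand), which with ITGAV binds latent TGF-beta, fell in PC3-labelled cells. Its level was 18.4, 19.4 and 14.7 CPM in vehicle and 9.65, 7.46 and 10.5 CPM in pentamidine, so that every pentamidine sample lay below every vehicle sample. It fell by 0.92 on the log2 scale (SE 0.14, edgeR adjusted p = 3.7e-05), to 0.528 times the vehicle level. In DU145-labelled cells the level was 16.4, 15.1 and 19.7 CPM in vehicle and 14.4, 17.8 and 15.2 CPM in pentamidine, and the log2 fold change of -0.11 (95% interval -0.31 to 0.10) did not pass the test. The interaction was -0.82 (SE 0.18, edgeR adjusted p = 0.00167), the largest among the members. The other chain that binds latent TGF-beta with ITGAV, ITGB6 (ENSG00000115221, chromosome 2, 160099666 to 160271888, minus strand), had 9, 1 and 5 counts in vehicle and 6, 3 and 5 in pentamidine in PC3-labelled cells, and 6, 14 and 7 against 8, 11 and 9 in DU145-labelled cells. A difference in ITGB6 was not detectable at this depth.

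The responses of the lines therefore differed for 6 of the 9 members, beside 20.4% of all genes (10.2% positive and 10.3% negative). With library size alone the split of all genes was 1128 positive and 2262 negative against 1546 and 1566 with TMM, and that of the members 3 and 2. With TMM, PC3-labelled minus DU145-labelled response was positive for ITGA3, ITGA5, ITGA6 and ITGB1 and negative for ITGB5 and ITGB8. None of the 6 differences passed the fold limit, beside 2.62% of all genes. The line and the response comparisons share the vehicle samples, so their values are given side by side and no relation between them is drawn. ITGA5, for example, was lower in PC3-labelled cells by 1.23 in vehicle, while its interaction was 0.55.

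Among the alpha chains the share of ITGA3 was higher in pentamidine in both lines. Its share of the summed level of the 5 alpha subunits, taken per exon length, was 53.5, 50.8 and 53.1% in vehicle and 64.3, 65.0 and 64.0% in pentamidine in PC3-labelled cells. In DU145-labelled cells it was 17.6, 17.2 and 16.5% in vehicle and 25.1, 24.2 and 23.8% in pentamidine. ITGA6 made up 22.3 ± 1.0% and 16.9 ± 0.3% of the alpha level in PC3-labelled cells and 49.5 ± 0.6% and 45.6 ± 1.1% in DU145-labelled cells (SD, n = 3, vehicle then pentamidine). The ratio of ITGA3 to ITGA6 per length was 2.36 ± 0.16 in vehicle and 3.81 ± 0.06 in pentamidine in PC3-labelled cells, and 0.346 ± 0.016 and 0.535 ± 0.027 in DU145-labelled cells. None of these ranges overlapped between vehicle and pentamidine, and the shares, which are tied to each other, were not tested.

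**Figure D4:**
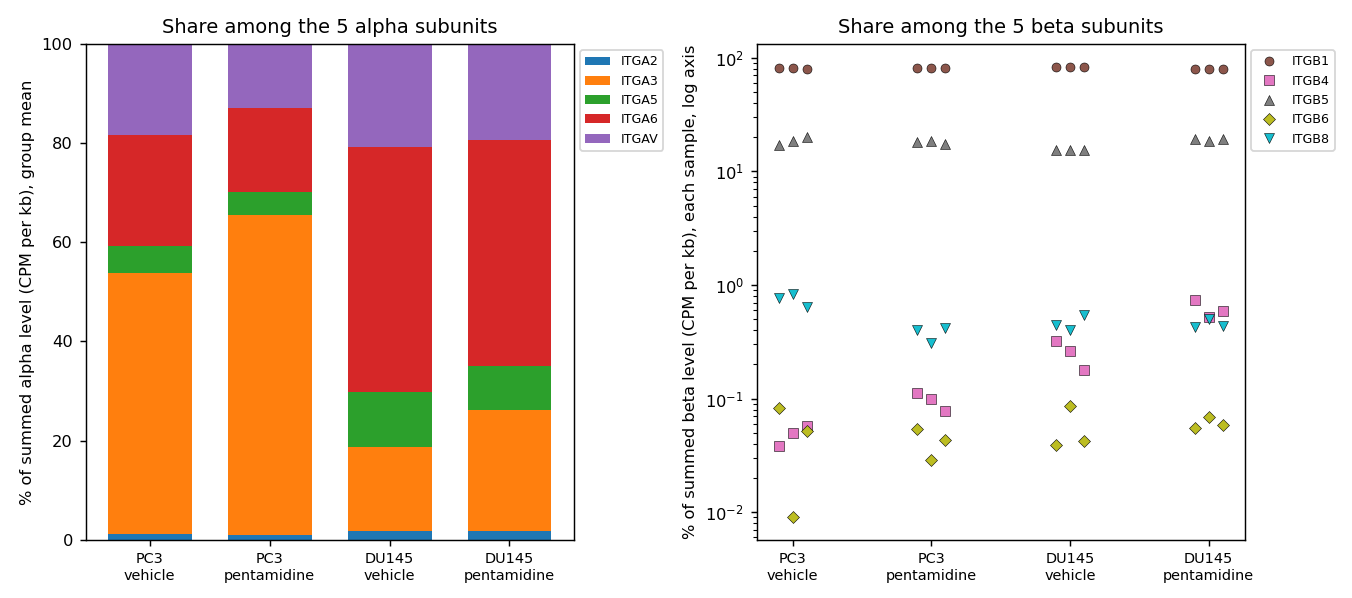
Left, the mean share of each alpha subunit in the summed alpha level per group, in CPM per kb. Right, the share of each beta subunit in the summed beta level in each sample, on a log axis. The ITGA3 share is 52.5 and 64.4% in PC3-labelled and 17.1 and 24.4% in DU145-labelled cells (vehicle, pentamidine), while ITGB1 keeps 79.8 to 83.7% of the beta level in all groups and ITGB4 is at most 0.740% in every sample.

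The beta chains were dominated by ITGB1 throughout. It held 80.6 ± 1.4% of the summed beta level in vehicle and 81.5 ± 0.4% in pentamidine in PC3-labelled cells, and 83.7 ± 0.1% and 79.8 ± 0.5% in DU145-labelled cells (SD, n = 3). ITGB5 took most of the rest, at 18.6, 18.0, 15.5 and 19.0% in the same order. ITGB4 held 0.0486% and 0.0968% in PC3-labelled and 0.253% and 0.617% in DU145-labelled cells. The level of ITGA6 per length was 325 times that of ITGB4 in vehicle-treated PC3-labelled cells and 105 times in vehicle-treated DU145-labelled cells, and 144 and 36.1 times in pentamidine. In DU145-labelled cells in pentamidine, ITGB4 at 1.41 ± 0.22 CPM per kb stood above ITGB8 at 1.04 ± 0.12 CPM per kb. In vehicle it stood below, at 0.617 ± 0.179 against 1.13 ± 0.16 CPM per kb. That crossing rests on the exon lengths, since in CPM ITGB4 stayed below ITGB8 in pentamidine, at 9.50 against 15.8. Per length ITGA3 passed ITGAV in DU145-labelled cells, at 26.7 against 21.2 CPM per kb in pentamidine and 21.0 against 25.5 in vehicle. In CPM these were 261 against 174 in pentamidine and 206 against 210 in vehicle. In PC3-labelled cells the order of the 10 subunits was the same in vehicle and in pentamidine.

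Of the other 16 integrin subunits, 6 passed the filter in PC3-labelled and 8 in DU145-labelled cells. In PC3-labelled cells 3 of the 6 changed, which is 50.0% beside 43.4% of all genes, a share near the background. ITGB2, the beta chain of leukocyte integrins, went from 30, 41 and 33 counts to 79, 72 and 56 counts, a log2 fold change of 1.00 (SE 0.21, edgeR adjusted p = 0.00104). Its leukocyte partners ITGAL, ITGAM and ITGAX were at a mean of 0.116 CPM or less there. ITGAD, another such partner, was at a mean of 0.40 CPM in vehicle and 0.41 CPM in pentamidine. ITGB3, another partner of ITGAV, went from 15, 14 and 17 counts to 32, 27 and 36 counts, a log2 fold change of 1.04 (SE 0.28, edgeR adjusted p = 0.00672). ITGA10, a collagen-binding chain that pairs with ITGB1, fell from 49, 71 and 76 counts to 24, 18 and 33 counts, by 1.38 on the log2 scale (SE 0.26, edgeR adjusted p = 3.4e-04). The other members of this group tested there were ITGA1, ITGA7 and ITGAE, at log2 fold changes of 0.33, 0.76 and -0.10 that did not pass the test, except ITGA7 without pentamidine replicate 3 (edgeR adjusted p = 0.0407). In DU145-labelled cells 0 of 8 changed by edgeR, beside 34% of all genes, 0 had an unadjusted p below 0.05, and 0 were called by DESeq2. Of these 8, ITGAE had 372 to 421 counts per sample there and the others 8 to 97. Such few reads limit what a test can detect, so the absence of calls does not show the absence of a response. The log2 fold changes of the 8 there were 0.12 for ITGA1, 0.34 for ITGA2B, 0.10 for ITGA7, -0.11 for ITGA10, 0.02 for ITGAE, -0.71 for ITGAM, 0.31 for ITGB2 and 0.44 for ITGB3. The interaction passed the test for ITGA10 alone of these 8 (-1.27, SE 0.33, edgeR adjusted p = 0.00593). ITGA4, ITGA8, ITGAL, ITGAX and ITGB7 were at a mean of 0.0948 CPM or less in every group.

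The ligands of these receptors moved in both directions. Of 19 laminin and collagen chains, 11 were tested in PC3-labelled cells, where 3 rose and 2 fell, and 13 in DU145-labelled cells, where 3 rose and 3 fell. These are 45.5% and 46.2%, beside 43.4% and 34% of all genes, and the median log2 fold changes were 0.03 and -0.08. LAMA5 and LAMB2, chains of basement membrane laminins, rose in both lines. LAMA5 rose by 0.38 and 0.30 and LAMB2 by 0.39 and 0.29 on the log2 scale in PC3-labelled and DU145-labelled cells, with edgeR adjusted p from 1.5e-09 to 0.00026.

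Of 13 RGD and other ligands, 11 were tested in each line. In PC3-labelled cells 5 rose and 3 fell, 72.7% beside 43.4% of all genes. In DU145-labelled cells 3 rose and 3 fell, 54.5% beside 34%. The median log2 fold changes of the list were 0.19 and 0.01. CTGF (also CCN2), a matricellular ligand of ITGAV integrins, rose in PC3-labelled cells from 165, 165 and 162 CPM to 481, 495.5 and 478 CPM, a log2 fold change of 1.57 (SE 0.05, edgeR adjusted p = 4.5e-14), and in DU145-labelled cells by 0.33 (SE 0.04, edgeR adjusted p = 1.3e-09). TNC, a matrix glycoprotein, rose in PC3-labelled cells from 37, 20 and 23 counts to 58, 53 and 57 counts (log2 fold change 1.07, SE 0.24, edgeR adjusted p = 0.00162). THBS1, a matrix protein that activates latent TGF-beta, fell in both lines, by 0.73 and 0.48 on the log2 scale.

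Adaptors and kinases of focal adhesions act through the integrin tails inside the cell. Of 25 tested in each line, 12 rose and 4 fell in PC3-labelled and 7 rose and 9 fell in DU145-labelled cells. Both counts are 64.0%, beside 43.4% and 34% of all genes, and the medians were 0.15 and -0.07. SRC, the kinase recruited to focal adhesions, rose from 17.5, 15.4 and 15.9 CPM to 46.5, 37.6 and 38.9 CPM in PC3-labelled cells (log2 fold change 1.34, SE 0.09, edgeR adjusted p = 4.9e-09). In DU145-labelled cells SRC was at 69.9, 67.4 and 70.1 CPM in vehicle and at 73.3, 76.9 and 71.4 CPM in pentamidine, a log2 fold change of 0.10 that did not pass the test (edgeR adjusted p = 0.109) but passed with library size alone (edgeR adjusted p = 0.0138). BCAR1, a docking protein phosphorylated by SRC kinase, fell in both lines, by 0.56 and 0.31 on the log2 scale.

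Next to ITGB4 in the hemidesmosome stand PLEC, DST, COL17A1 and CD151 proteins. PLEC and DST encode plakins that tie the hemidesmosome to keratin. PLEC rose by 0.18 on the log2 scale in DU145-labelled cells (SE 0.03, edgeR adjusted p = 8.8e-06) and fell by 0.15 in PC3-labelled cells (SE 0.06, edgeR adjusted p = 0.0405), a call lost in 5 of the 6 fits that left out 1 sample, all except that without vehicle replicate 2 (edgeR adjusted p 0.052 to 0.179). DST fell by 0.27 in DU145-labelled cells (SE 0.03, edgeR adjusted p = 9.2e-09), and its log2 fold change of -0.13 in PC3-labelled cells did not pass the test (edgeR adjusted p = 0.096). It passed there with no filter on low counts (edgeR adjusted p = 0.0401), with all 12 samples in 1 fit (0.0428) and without vehicle replicate 3 (0.021) or pentamidine replicate 3 (0.0292). COL17A1, which the rule for naming genes given below does not pick, had few reads. In DU145-labelled cells it had 35, 36 and 55 counts in vehicle and 21, 22 and 23 in pentamidine. In PC3-labelled cells it had 2, 6 and 4 counts in vehicle and 4, 3 and 6 in pentamidine. In all, 3 of the 4 were tested in PC3-labelled cells, where 1 fell (33.3% beside 43.4%, median -0.13), and 4 in DU145-labelled cells, where 1 rose and 2 fell (75.0% beside 34%, median -0.16).

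Of 11 membrane proteins that associate with integrins, including FURIN, the protease that cleaves alpha chains, 3 rose and 4 fell in PC3-labelled and 2 rose and 4 fell in DU145-labelled cells. These are 63.6% and 54.5%, beside 43.4% and 34%, with medians of -0.19 and -0.10. SLC3A2, the CD98 heavy chain, which binds beta tails and carries amino acid transporters, rose from 195, 210.2 and 224 CPM to 648, 664 and 634 CPM in PC3-labelled cells (log2 fold change 1.64, SE 0.06, edgeR adjusted p = 2.7e-13) and by 0.84 in DU145-labelled cells. PLAUR, the urokinase receptor, a lateral partner of integrins, fell by 0.44 and 0.51 on the log2 scale. FURIN fell by 0.38 in PC3-labelled cells (SE 0.05, edgeR adjusted p = 2.4e-05), and its log2 fold change of -0.10 in DU145-labelled cells did not pass the test.

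**Figure D5:**
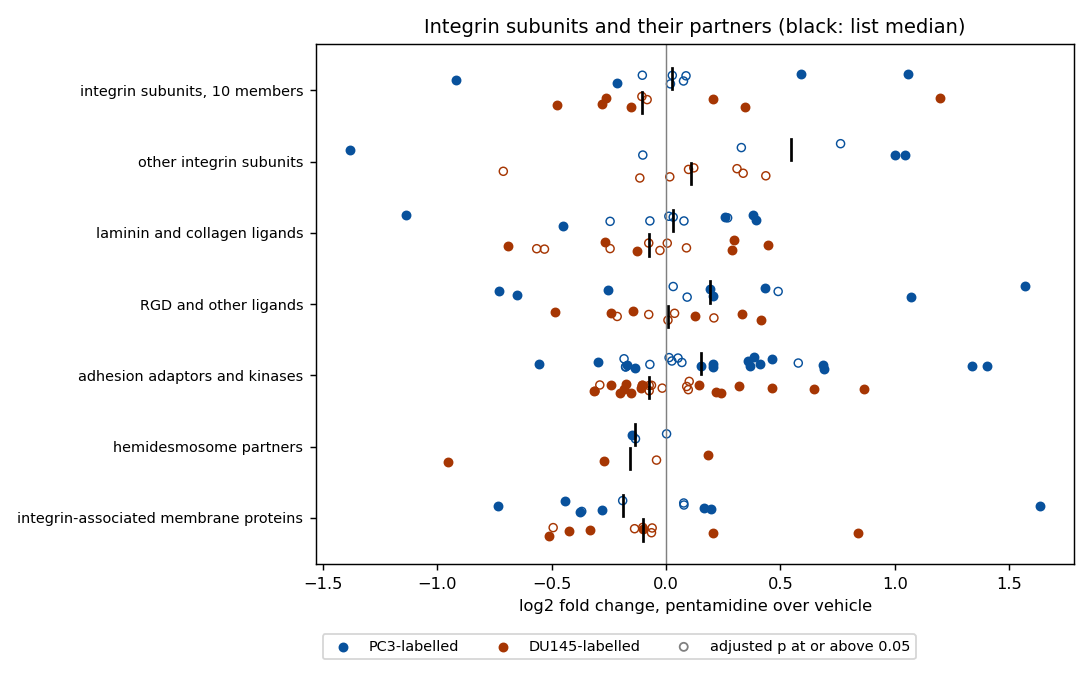
Log2 fold change, pentamidine over vehicle, of each tested gene of the integrin subunits and 6 related lists, in PC3-labelled and DU145-labelled cells, with the list median as a black line and open points where the adjusted p was 0.05 or more. The adaptor median is 0.15 in PC3-labelled and -0.07 in DU145-labelled cells, and the points farthest right include SLC3A2, CTGF and SRC in PC3-labelled cells.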

How the data were processed

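RNA-seq counts of 12 samples in 4 groups of 3 were analysed, grouped by the sample labels. Per the labels and the study's methods, the authors enriched mRNA with Oligo(dT) beads, sequenced it on an Illumina Novaseq and aligned the reads with HISAT2 (HISAT2 2.1.0 and DESeq 1.18.1 stand in the submitters' processing notes, with build GRCh38). The counting program, its strand setting and the annotation release are not given in the sources used here, so reads of a gene and of an antisense partner cannot be told apart. The values used are the read counts per gene that the authors deposited, without normalization. A table named for FPKM was not used, and 2 deposited tables of the authors' own comparisons, with fold changes and p-values per line, were not used either.

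Of 33595 entries with an Ensembl identifier, 32077 genes were kept after entries that repeated a name and its counts were merged, and 44 lines of split annotation text were dropped. Another 24 gene names had become dates. Exon lengths and overlaps came from GENCODE release 29, where 31961 genes were found, 30922 of them with the same chromosome, start, end and strand.

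edgeR 4.0.16 (R 4.3.3) was used with TMM, filterByExpr at a minimum count of 10, glmQLFit, glmQLFTest and Benjamini-Hochberg adjustment over all genes tested, on 6 samples per comparison and on 12 for the interaction of line and treatment. An adjusted p below 0.05 was called changed, and an absolute log2 fold change above 1 is the fold limit of the study. The SE was derived from the fold change and its F statistic, and the 95% interval is the estimate with 1.96 SE on each side. CPM values are scaled by TMM, and levels of different genes are compared per kb of exon, with all annotated exons of a gene merged. No pair of groups with shared replicate numbers passed the check for pairing, with correlations of same-numbered samples from -0.073 to 0.039, so the main fits hold no block. Replicates of a group differed beyond sampling noise (mean chi-square per gene 1.72 to 7.31). The spread was largest in vehicle-treated PC3-labelled cells, at 3.64 to 7.31, against 1.72 to 3.13 in the other groups. Depth of 13514195 to 15131436 counts per sample limits the members with few reads, ITGB4 and ITGB6.

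On simulated counts the tests recovered 80.6% of changes of 0.5 (log2) in the PC3 comparison, 82.1% in the DU145 comparison, 67.2% between lines and 38.8% for the interaction. Those counts had the same fixed dispersion for every gene and group, and changes were placed only in genes above a minimum mean count. The rates therefore do not give the power for members with few reads or for groups with more spread. The members and lists were chosen with earlier results of these data known. All 10 members are described. Genes of the related lists are named where their absolute log2 fold change was above 1 at an adjusted p below 0.05, and otherwise the 2 of each list with the smallest adjusted p in each line, with every other integrin subunit that passed the filter. A few genes that this rule or the marker lists hold are not reported here. Alternatives were DESeq2 1.42.0, RLE normalization, library size alone, no mitochondria-encoded genes, no filter, at least 10 counts in every sample, a replicate block, an adjusted p below 0.01, the fold limit, all 12 samples in 1 fit, each sample left out, and, chosen after seeing the data, the counts of ITGB1P1 added to ITGB1.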

Additional observations from a re-analysis of the deposited data

Results flagged for a closer look

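The response to pentamidine differed between the 2 lines, by the interaction of line and treatment in edgeR over all 12 samples, for 6 subunits. The log2 response of PC3-labelled cells minus that of DU145-labelled cells was 0.552 for ITGA5, 0.244 for ITGA3, 0.241 for ITGB1, 0.177 for ITGA6, -0.179 for ITGB5 and -0.816 for ITGB8, with edgeR adjusted p from 5.3e-06 (ITGA5) to 0.0309 (ITGB5). ITGA3 rose in both lines, ITGA5, ITGA6 and ITGB1 fell in DU145-labelled cells, ITGB5 rose in DU145-labelled cells and ITGB8 fell in PC3-labelled cells. In groups of 3 samples no single sample was tested as an outlier.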

How the results depend on the processing

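Over 36 member results and 586 alternatives, 539 kept direction and side of the threshold, 32 kept the direction but lost the call, 1 gained it and 14 turned. Changed members numbered 4 in PC3-labelled cells, 2 at an adjusted p below 0.01 and 2 to 4 with a sample left out, 7 in DU145-labelled cells (7 to 7 with a sample left out), 8 between lines (8 to 8) and 6 for the interaction (4 to 6). With the fold limit they were 1, 1, 4 and 0. All genes called were 6010, 4860, 9405 and 3112, and 658, 290, 2768 and 399 with the fold limit, 1996 for the interaction at an adjusted p below 0.01, and 4866 to 6180, 4051 to 4421, 8777 to 9672 and 2644 to 3268 with a sample left out. The results that turned were not called before or after, and the cause was not tested. Ranges in brackets give the far end over the fits with a sample left out. ITGA2 in PC3-labelled cells went to -0.015, -0.049 and -0.057 without vehicle replicate 1, vehicle replicate 2 and pentamidine replicate 1 (to 0.115), and ITGB5 to -0.013 without vehicle replicate 1 (to 0.070). In DU145-labelled cells ITGB8 went to 0.014 (from -0.209) without vehicle replicate 3. ITGAE and ITGA7, which are not members and not among the 14, also turned there. ITGAE went to -0.019 (to 0.056) without vehicle replicate 3 and ITGA7 to -0.082 (to 0.219) without vehicle replicate 2. Between lines ITGB8 went to -0.0027 with at least 10 counts in every sample and to -0.012, -0.062, -0.018 and -0.075 without PC3 or DU145 vehicle replicates 1 and 2 (to 0.131). The interaction of ITGAV went to -0.019 with library size alone and to -0.0021 and -0.022 without PC3 vehicle or pentamidine replicate 3 (to 0.102), and that of ITGB4 to 0.081 without DU145 vehicle replicate 3 (from -0.331). The samples share only a replicate number. With the number as a block the calls fell to 5599 genes in PC3-labelled cells, 4794 in DU145-labelled cells and 2803 for the interaction and were 9430 between lines, and among members ITGB4 in PC3-labelled cells (edgeR adjusted p = 0.0677) and the interaction of ITGB5 (0.0573) lost their calls. Scaling moved the median of all genes by at most 0.0802 (log2). DESeq2 called 3263 genes against 4860 in DU145-labelled cells. Depth limits ITGB4 in PC3-labelled cells and ITGB6 in all groups.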

Other observations

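The genes whose pattern was most like that of ITGB4, the member with the largest fold change in both lines, were DUS1L, a tRNA-modifying enzyme, PTK2B, a kinase related to focal adhesion kinase, and ALDH6A1, a mitochondrial enzyme of valine breakdown. Each had a Pearson r of 0.978 with ITGB4 in log2 CPM over the 12 samples after each line was centred on its own mean, among 13124 genes compared. The correlation does not reflect the size of a change, and the log2 fold changes of these genes were smaller than those of ITGB4. For DUS1L, PTK2B and ALDH6A1 they were 0.11, 0.50 and 0.57 in PC3-labelled and 0.22, 0.51 and 0.79 in DU145-labelled cells. DUS1L did not pass the test in PC3-labelled cells (edgeR adjusted p = 0.1). The points share libraries and the treatment contrast, so the likeness is a description. Among the members r with ITGB4 was 0.842 for ITGA3, 0.794 for ITGB5, -0.883 for ITGAV and -0.887 for ITGA6. It was weaker for the others tested, at -0.163 for ITGA2, -0.456 for ITGB1, -0.614 for ITGA5 and -0.673 for ITGB8.

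ITGB1-DT, a noncoding gene on the opposite strand beside ITGB1, was named after its values were seen. It had 78, 78 and 70 counts in vehicle and 135, 143 and 133 in pentamidine in PC3-labelled cells, and 30, 18 and 33 against 54, 38 and 49 in DU145-labelled cells. Its log2 fold changes were 0.87 (SE 0.14, edgeR adjusted p = 8e-05) and 0.77 (SE 0.25, edgeR adjusted p = 0.0131), while those of ITGB1 were 0.09 and -0.15. It shares 42 exon bases with ITGB1, 0.7% of the ITGB1 exon length.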
